A study of Homo sapiens with 35 samples.

Results

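PLAU, PLAUR, PLAT and SERPINE2 are 4 genes of the plasminogen activator system, chosen by their symbols out of 62696 genes in the count table, of which 16879 were expressed highly enough to be tested. All 4 passed that filter. Their RNA levels were followed in 12 RNA-seq libraries of U-87 MG cells, and the peaks of p52, ETS1 and RNA polymerase II (RNA Pol II) at the same genes in 20 ChIP-seq libraries. The U-87 MG line was derived from a human glioblastoma. TWEAK, a cytokine related to TNF, acts through its receptor TNFRSF12A on the non-canonical branch of NF-κB signalling, where the NFKB2 protein p100 is cut to the DNA-binding form p52. The RNA-seq groups, each of 3 replicates, were untreated control cells, control cells given TWEAK, and ETS1 knockdown (KD) or NFKB2 KD cells given TWEAK. Both KDs were made by CRISPR-Cas9 with a lentiviral lentiCRISPR vector, and whether they were single clones is not given in the sources used here. Cells were starved for 8 h and TWEAK was given at 10 ng/ml for 48 h with 1 renewal after 24 h. There was no untreated KD group for RNA. The p52 antibody was used on untreated control cells, TWEAK control cells and TWEAK-treated ETS1 KD cells made with guide 1 or guide 2. ETS1 was profiled in control cells with or without TWEAK, and RNA Pol II in the same 4 conditions as the RNA. Each of these 10 ChIP conditions had 2 replicates.

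Urokinase (PLAU) and tissue plasminogen activator (PLAT) are serine proteases that cleave plasminogen to plasmin, which degrades fibrin and other matrix proteins. The urokinase receptor (PLAUR) is anchored in the membrane by a lipid and holds urokinase at the cell surface. SERPINE2, also called protease nexin 1, is a secreted serpin that inhibits urokinase, plasmin and thrombin. The system is known for its part in the invasion of glioma cells, and ETS factors are known regulators of the PLAU gene.

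Total counts lay between 28384201 and 40192606 per library. VIM, CD44, SPARC and TNC, markers of mesenchymal cells, and NES, a marker of neural progenitors, were abundant, with the lowest library of NES at 76.6 CPM (counts per 1000000 counted reads, after TMM scaling) and that of SPARC at 364 CPM. The glial markers GFAP, S100B and SOX2 stayed at or below 0.365 CPM in every library and OLIG2 at most reached 1.73 CPM. Leukocyte, endothelial and epithelial markers did not exceed 2.05 CPM. The receptor of TWEAK, TNFRSF12A, was measured at 103 to 158 CPM. As a check of the labels, ETS1 RNA was at 28.2, 33.0 and 37.8 CPM in the ETS1 KD libraries against 71.9, 73.1 and 87.6 CPM in TWEAK control cells. NFKB2 RNA was at 75.6, 92.6 and 105 CPM in the NFKB2 KD libraries against 235, 289 and 346 CPM in TWEAK control cells. In untreated control cells ETS1 was at 41.3 to 45.1 CPM and NFKB2 at 49.6 to 66.6 CPM. TWEAK raised both in control cells, by a log2 fold change of 0.86 and 2.35. ETS1 in its KD libraries thus lay below the untreated libraries, while NFKB2 in its KD libraries lay above them. Against TWEAK control cells both targeted genes were lowered but still transcribed, and RNA does not measure how much protein was left. The libraries differed in how expression followed GC content. From the 10th to the 90th percentile of GC content, the deviation from the mean library moved by between -0.34 (TWEAK control replicate 1) and 0.60 on the log2 scale (NFKB2 KD replicate 2). A difference of a gene in RNA of whole cultures cannot tell apart fewer cells that express it from less RNA per cell.

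Per kilobase of exon, with the exons of all annotated transcripts of a gene merged, PLAU was the most abundant of the 4 genes. In untreated control cells its level was 91.0 ± 23.0 FPKM (CPM per kilobase of exon; SD, n = 3), followed by PLAUR with 40.0 ± 3.94, SERPINE2 with 15.5 ± 0.958 and PLAT with 1.83 ± 0.199 FPKM. This order was the same in the mean of each of the 4 groups and in each of the 12 libraries. It rests on the merged exon lengths, 2949 bp for PLAU and 4457 bp for PLAUR, which are not the lengths of single transcripts. Without division by length, PLAUR was above PLAU in the mean of TWEAK control cells (288 against 265 CPM). The closest pair of neighbours was PLAU and PLAUR in replicate 1 of TWEAK control cells, at 67.3 and 57.4 FPKM. Across all libraries, PLAU ranged from 67.3 to 122 FPKM and PLAUR from 37.5 to 75.9 FPKM, so that these 2 ranges overlapped, while those of SERPINE2 (14.5 to 19.3 FPKM) and PLAT (0.913 to 2.06 FPKM) overlapped with no other.

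**Figure D1:**
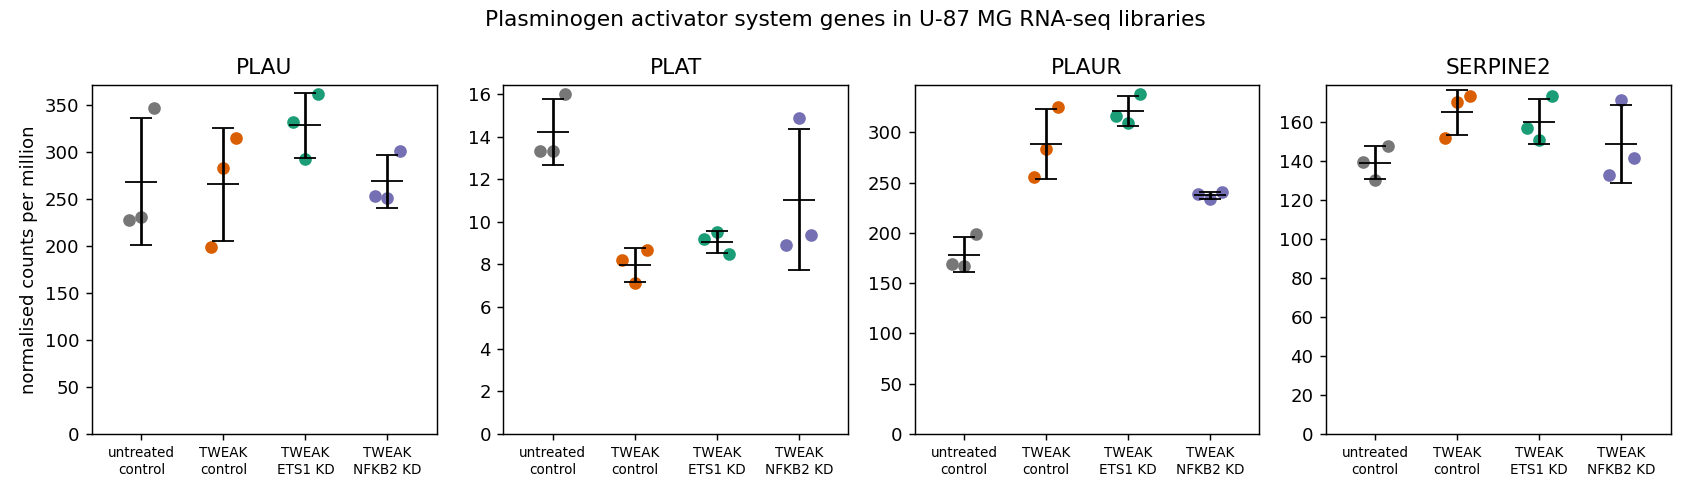
Normalised counts (CPM, vertical axis, from 0) of each gene in the 12 RNA-seq libraries, with 1 point per library and the mean ± SD of 3 replicates in black. The TWEAK control libraries of PLAUR lie at 256 CPM or above and the untreated libraries at 198 CPM or below, while those of PLAT lie at 8.66 CPM or below and at 13.3 CPM or above.

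TWEAK was first compared with no treatment in control cells. It raised PLAUR and lowered PLAT, while PLAU and SERPINE2 did not pass the test. Over all genes tested, 1.55% were called higher and 1.53% lower in this comparison (edgeR's quasi-likelihood test, Benjamini-Hochberg adjusted p under 0.05 over the 16879 genes), against 1 of 4 members in each direction. The members were chosen with earlier results of these data known, so these shares are a description only. The members' values follow by role, proteases first.

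PLAU RNA was at 227, 231 and 347 CPM in untreated control cells and at 198, 283 and 314 CPM with TWEAK. The groups overlapped, and the spread within each was wider than the distance between their means of 268 and 265 CPM. The log2 fold change was -0.02 (SE 0.19, 95% confidence interval -0.43 to 0.40, edgeR adjusted p = 0.986). Leaving out untreated replicate 3 gave 0.22 and leaving out TWEAK replicate 1 gave 0.16, which turns the sign. In the KD cells PLAU was at 332, 292 and 361 CPM with ETS1 KD and at 253, 251 and 301 CPM with NFKB2 KD. An lncRNA, C10orf55, lies on the opposite strand across the PLAU gene, and the strand setting of the authors' counting is not given in the sources used here. C10orf55 was at 0.638 to 1.23 CPM in the 12 libraries, far below PLAU.

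The PLAU gene (ENSG00000122861) occupies positions 73909177 to 73917496 of chromosome 10 (hg38, plus strand), with 11 exons in its MANE Select transcript and the start of that transcript (MANE start) at 73911132. An ETS1 peak was listed in intron 1 in 3 of the 4 ETS1 libraries. In untreated cells it was called in replicate 1 only, from 73911172 to 73911758, with a fold enrichment over background of 5.92 and a −log10 q-value of 13.3. In TWEAK control cells both replicates had it, with a fold enrichment of 4.31 and 3.79 and −log10 q-values of 4.03 and 3.34. The summits lay 236 to 379 bp downstream of the MANE start. By the rule that both replicates must have a peak, PLAU had an ETS1 site in TWEAK-treated but not in untreated cells, although the strongest of the 3 peaks belonged to an untreated library. No p52 peak was listed at PLAU in untreated cells or with ETS1 KD guide 1. Upstream of the gene, 16751 bp before the MANE start and 14796 bp before the nearest annotated start, p52 peaks were called in TWEAK control replicate 2 (fold enrichment 6.13) and in both replicates with ETS1 KD guide 2 (7.59 and 6.20). The other TWEAK control library, whose list was shorter with 3579 against 11761 peaks, had none. Weaker p52 peaks lay 4706 bp upstream and 1009 bp downstream of the MANE start in TWEAK control replicate 2, with a fold enrichment of 3.13 and 3.23, and 4428 bp upstream in guide 2 replicate 2 (4.19).

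The sequences under these 2 regions are shown because each holds a match to the motif of a factor profiled here. They are 151 bases of hg38, on the strand of the gene and centred on the median summit, with matches in capitals. Searched on both strands were the κB consensus, the ETS cores AGGAAG and CGGAAG and the AP-1 motif TGANTCA, and overlapping matches run together.
PLAU intron 1, ETS1 peak, chr10:73911377-73911527, plus strand: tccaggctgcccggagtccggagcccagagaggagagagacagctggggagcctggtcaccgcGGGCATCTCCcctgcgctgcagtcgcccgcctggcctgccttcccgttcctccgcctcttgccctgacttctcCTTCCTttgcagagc
PLAU upstream, p52 peak, chr10:73894306-73894456, plus strand: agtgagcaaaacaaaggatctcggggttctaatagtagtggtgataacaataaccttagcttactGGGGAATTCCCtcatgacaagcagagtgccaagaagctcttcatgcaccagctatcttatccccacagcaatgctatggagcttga
In the upstream region, the κB matches were centred 5 and 6 bp from the summit. In the intron 1 region, the reverse complement of AGGAAG was centred 63 bp from the summit, and a κB match lay 8 bp from it. Of all 1981 ETS1 sites of TWEAK control cells, 13.8% held AGGAAG in a window of this length, 13.2% CGGAAG, 15.4% a κB match and 0.959% the AP-1 motif. Of the 1590 ETS1 sites of untreated cells, these shares were 14.3%, 10% (CGGAAG), 15% (κB) and 1.01%.

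PLAT, the other plasminogen activator, was the least abundant member and fell with TWEAK. It was at 13.3, 13.3 and 16.0 CPM in untreated control cells and at 8.18, 7.09 and 8.66 CPM in TWEAK control cells, which is 383 to 512 against 228 to 312 counts. All 3 treated libraries lay below all 3 untreated ones. The log2 fold change was -0.83 (SE 0.19, interval -1.24 to -0.43, edgeR adjusted p = 0.0298). The call needed all libraries. Without untreated replicate 1, 2 or 3 the adjusted p became 0.0882, 0.1 and 0.094, and without TWEAK replicate 1, 2 or 3 it became 0.074, 0.167 and 0.0969, while the log2 fold change stayed between -0.90 and -0.74. With ETS1 KD and TWEAK, PLAT was at 9.18, 9.50 and 8.49 CPM, and with NFKB2 KD and TWEAK at 8.89, 14.9 and 9.36 CPM. Replicate 2 of NFKB2 KD stood at the untreated level and is also the library with the steepest trend over GC content (0.60), whose part in this value was not tested.

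PLAT (ENSG00000104368) lies on the minus strand of chromosome 8, from 42174718 to 42207709, with its MANE start at 42207565. No ETS1 peak was listed at PLAT in any of the 4 ETS1 libraries. A single p52 peak, with its summit in exon 1 and 12 bp from the MANE start, was called in TWEAK control replicate 2 with a fold enrichment of 3.77. It ranked 11361 of 11761 in that list and was absent from the other 7 p52 libraries.

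PLAUR, the receptor that concentrates urokinase on the cell surface, rose with TWEAK. It was at 169, 167 and 198 CPM in untreated control cells and at 256, 283 and 326 CPM in TWEAK control cells. Every treated library was above every untreated one. The log2 fold change was 0.69 (SE 0.11, interval 0.45 to 0.93), a fold of 1.62 (edgeR adjusted p = 0.00474), and the gene remained called when any 1 of the 6 libraries was left out (adjusted p from 0.00403 to 0.046). With ETS1 KD and TWEAK it was at 316, 309 and 338 CPM, above all untreated libraries and overlapping with TWEAK control cells. With NFKB2 KD and TWEAK it was at 238, 234 and 240.4 CPM, between the untreated and the TWEAK control libraries and overlapping with neither.

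PLAUR (ENSG00000011422) lies on the minus strand of chromosome 19, from 43646095 to 43670547, with its MANE start at 43670169. It had a p52 site 5540 bp upstream of that start, between genes. In TWEAK control cells its fold enrichment was 5.16 in replicate 1 and 6.12 in replicate 2, with −log10 q-values of 7.04 and 14.0. In ETS1 KD cells it was called with guide 1 in replicate 2 only (8.01) and with guide 2 in both replicates (5.77 and 6.39). Neither untreated library had it. A further weak p52 peak in intron 1, 907 and 977 bp from the MANE start, was called in 1 TWEAK control and 1 guide 2 library (3.57 and 3.85). No ETS1 library had a peak at PLAUR.

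The upstream site and the promoter of PLAUR are shown as the sequence next to the member with the clearest rise. The promoter is the RefSeq window of 300 bases that spans the gene's start (build GRCh38.p14), where RNA Pol II was bound but p52 and ETS1 peaks were not listed.
PLAUR upstream, p52 site, chr19:43675634-43675784, minus strand: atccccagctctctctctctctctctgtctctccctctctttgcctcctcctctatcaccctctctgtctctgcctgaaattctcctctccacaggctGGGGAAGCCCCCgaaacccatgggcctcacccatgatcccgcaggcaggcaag
PLAUR promoter, chr19:43670120-43670419, minus strand: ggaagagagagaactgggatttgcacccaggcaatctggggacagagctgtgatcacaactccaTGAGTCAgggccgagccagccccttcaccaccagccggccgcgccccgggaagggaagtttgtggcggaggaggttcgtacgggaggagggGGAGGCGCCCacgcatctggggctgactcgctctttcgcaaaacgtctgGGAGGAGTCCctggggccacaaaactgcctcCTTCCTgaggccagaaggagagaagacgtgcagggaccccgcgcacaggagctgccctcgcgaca
The upstream region held 3 overlapping κB matches centred 27 to 29 bp from the summit. The promoter held 2 κB matches, 1 AGGAAG on the opposite strand and 1 AP-1 motif. Of the RefSeq windows of PLAU, that from 73910882 to 73911181 held 1 AGGAAG and 1 CGGAAG, and that from 73910360 to 73910659 none of the motifs. Of those of SERPINE2, that from 224031429 to 224031728 held 1 CGGAAG, and that from 224038591 to 224038890 none. Of 35116 RefSeq promoters of this length, 23.9% held a κB match, 33.6% AGGAAG, 19.5% CGGAAG and 7.71% the AP-1 motif.

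SERPINE2, the inhibitor among the members, did not pass the test with TWEAK. It was at 140, 130.3 and 147 CPM in untreated and at 152, 170.1 and 173 CPM in TWEAK control cells. The groups did not overlap, but the log2 fold change of 0.25 (SE 0.12, interval -0.01 to 0.50) had an edgeR adjusted p = 0.358 (unadjusted p = 0.0547). With ETS1 KD it was at 157, 151 and 173 CPM and with NFKB2 KD at 133, 171 and 141 CPM, where the highest value is again that of replicate 2.

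SERPINE2 (ENSG00000135919) spans 64274 bp on the minus strand of chromosome 2, from 223975045 to 224039318, with its MANE start at 224039286. It carried the strongest p52 peak at any member. This peak lay in intron 1, 15958 bp downstream of the MANE start and 7473 bp from the nearest annotated start, and was called in all 6 p52 libraries of TWEAK-treated cells and in neither of the 2 untreated ones. Its fold enrichment was 16.1 and 37.5 in TWEAK control cells, 12.9 and 29.7 with ETS1 KD guide 1, and 36.0 and 27.8 with guide 2. The summits of the 6 libraries lay within 29 bp of each other. Ranked by q-value within its own list, the peak lay between the strongest 4.53% (TWEAK control, replicate 2) and 29.0% (guide 1, replicate 1). A second p52 site was at the promoter, with summits 262 and 279 bp upstream of the MANE start in the 2 TWEAK control libraries (fold enrichment 5.78 and 9.07). Of the 4 ETS1 KD libraries only guide 2 replicate 1 had it (5.37).

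ETS1 peaks flanked the start site of SERPINE2 on both sides. The peak in intron 1, 549 to 683 bp downstream of the MANE start, was called in all 4 ETS1 libraries, with a fold enrichment of 4.92 and 5.27 in untreated and 3.95 and 5.71 in TWEAK control cells. The peak upstream of the start was called in replicate 1 only, 344 bp away in untreated (5.87) and 267 bp away in TWEAK control cells (4.63). The latter shared 160 bp with the p52 peak of TWEAK control replicate 1 and 218 bp with that of replicate 2, with the summits 5 and 12 bp apart. It was the only place at the 4 genes where a p52 and an ETS1 peak shared bases.

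The 3 regions of SERPINE2 are shown to set the p52 site with the highest enrichment beside the promoter sites of both factors.
SERPINE2 intron 1, p52 site, chr2:224023253-224023403, minus strand: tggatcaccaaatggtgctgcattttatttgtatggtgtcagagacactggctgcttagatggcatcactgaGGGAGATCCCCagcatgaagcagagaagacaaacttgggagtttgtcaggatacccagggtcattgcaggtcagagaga
SERPINE2 promoter, p52 site and ETS1 peak, chr2:224039473-224039623, minus strand: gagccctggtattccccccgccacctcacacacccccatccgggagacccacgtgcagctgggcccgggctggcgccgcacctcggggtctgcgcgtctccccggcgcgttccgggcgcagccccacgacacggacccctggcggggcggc
SERPINE2 intron 1, ETS1 site, chr2:224038615-224038765, minus strand: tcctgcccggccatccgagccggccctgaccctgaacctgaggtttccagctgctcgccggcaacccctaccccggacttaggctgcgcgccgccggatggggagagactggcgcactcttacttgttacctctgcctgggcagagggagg
In the p52 site of intron 1, 2 overlapping κB matches were centred 1 and 2 bp from the summit. The other 2 regions held none of the motifs searched. Of the 2941 p52 sites of TWEAK control cells, 81.8% held a κB match in a window of this length, 19.9% AGGAAG, 4.93% CGGAAG and 17.2% the AP-1 motif. With ETS1 KD guide 2, 81.7% of 3068 p52 sites held a κB match, 18.7% AGGAAG, 4.82% CGGAAG and 17.1% the AP-1 motif.

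**Figure D2:**
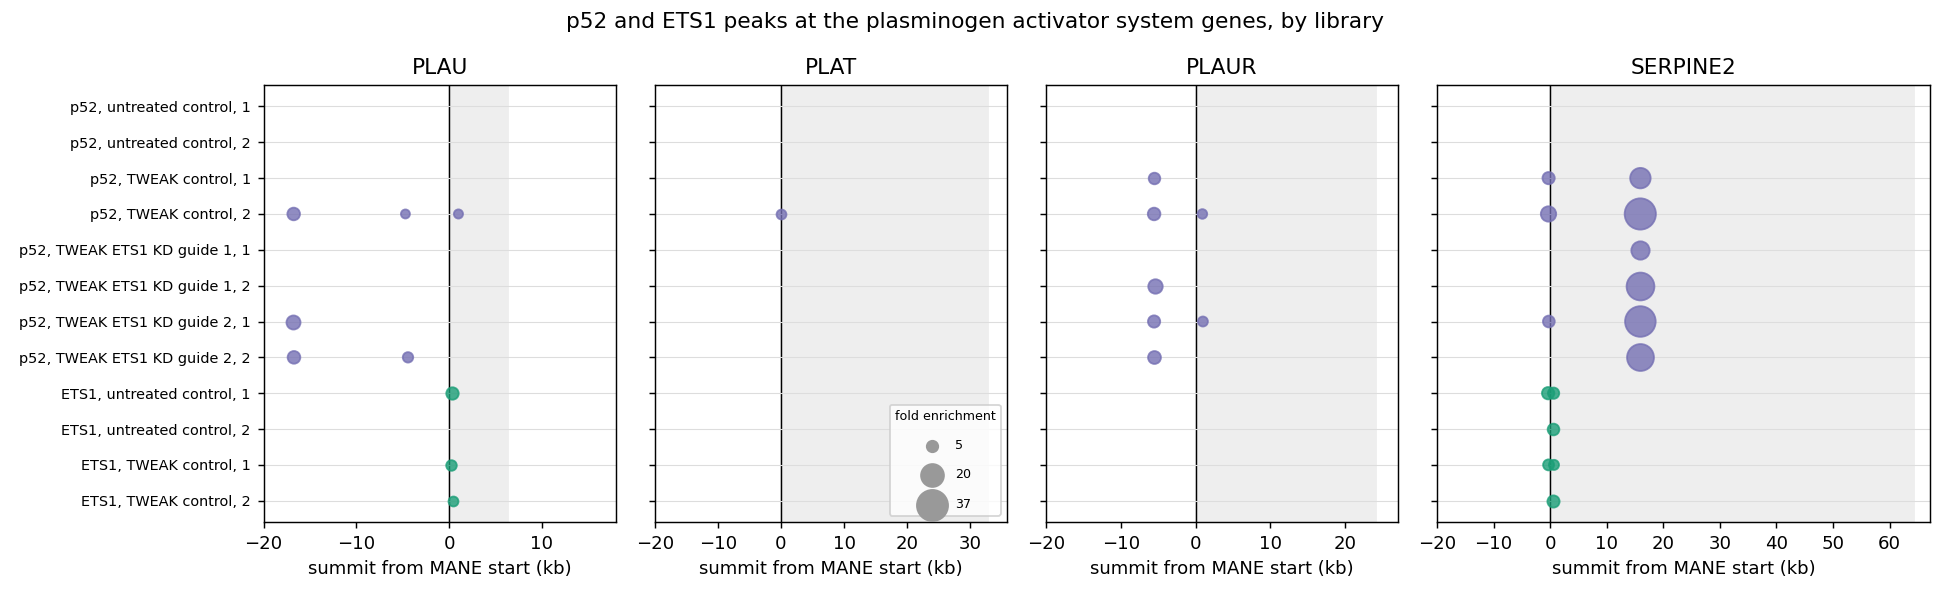
Distance of each p52 (purple) and ETS1 (green) peak summit from the MANE start in kb (horizontal axis, negative upstream, gene in grey), with 1 line per library, the replicate number last, and the area of a point proportional to the fold enrichment. The SERPINE2 peak at 15958 bp lies in all 6 p52 libraries of TWEAK-treated cells, while no p52 peak is listed in the 2 untreated libraries.

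By the rule of a peak in both replicates, in the gene or within 15000 bp of a start site, p52 sites were thus counted at 0 of 4 members in untreated cells, at 2 in TWEAK control cells (PLAUR and SERPINE2), at 1 with ETS1 KD guide 1 (SERPINE2) and at 3 with guide 2 (PLAU, PLAUR and SERPINE2). Over the 16873 tested genes with a position in the annotation, the shares with such a site were 0.0711%, 13.6%, 6.09% and 13.8%. For ETS1 the count was 1 member without TWEAK (SERPINE2) and 2 with TWEAK (PLAU and SERPINE2), against 8.55% and 11.6% of all genes. A long gene has more room for a site. SERPINE2 spans 64274 bp, PLAT 32992 bp, PLAUR 24453 bp and PLAU 8320 bp, and PLAT had no p52 or ETS1 site by this rule in any condition. The part of gene length in these counts was not tested. With 2 replicates per condition an exact permutation test cannot go below p = 0.333, so no difference between conditions was tested. The p52 lists also differed in length, with 1387 and 3897 peaks for guide 1, 4252 and 3938 for guide 2, and 714 and 452 in untreated cells. Among the 452 strongest peaks of each library, no member had a p52 site in TWEAK control cells, and SERPINE2 alone had one with either guide. This turned on the SERPINE2 peak in intron 1, which ranked 562 and 533 in TWEAK control cells, 402 and 272 with guide 1, and 237 and 354 with guide 2. The share of all genes at this cut was not computed, so this count is not a result about the members.

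The question of the KDs is whether the levels reached with TWEAK depended on ETS1 or on NFKB2. None of the 4 members passed the test in ETS1 KD cells against TWEAK control cells by edgeR, nor by DESeq2. With edgeR 0 of 4 had an unadjusted p under 0.05, beside 11.98% of all genes tested. Over all genes 0.255% were called higher and 1.13% lower in this comparison. The log2 fold changes with ETS1 KD were 0.31 for PLAU (SE 0.19, interval -0.11 to 0.72), 0.16 for PLAUR (SE 0.11, interval -0.08 to 0.39), 0.18 for PLAT (SE 0.19, interval -0.22 to 0.59) and -0.04 for SERPINE2 (SE 0.12, interval -0.29 to 0.21). The edgeR adjusted p lay between 0.621 and 0.969. For each member, only a fall beyond its lower bound or a rise beyond its upper bound lies outside the 95% interval. These bounds hold for cells in which ETS1 RNA was lowered to a fold of 0.43 of TWEAK control cells. How much ETS1 protein was left in them cannot be told from RNA, so whether the bounds hold for a full loss of ETS1 is not known.

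With NFKB2 KD, where only 0.00592% of all genes were called higher and 0.0237% lower than in TWEAK control cells, none of the 4 members passed either tool. Of the 4, 2 had an unadjusted p under 0.05, as had 3.91% of all genes tested. PLAUR was lower by a log2 fold change of -0.28 (SE 0.11, interval -0.52 to -0.04, unadjusted p = 0.0244, edgeR adjusted p = 1), and its 3 NFKB2 KD libraries lay below the 3 TWEAK control libraries. PLAT was higher by 0.47 (SE 0.19, interval 0.07 to 0.87, unadjusted p = 0.0256, edgeR adjusted p = 1), and without NFKB2 KD replicate 2 this value was 0.19. PLAU (0.02, SE 0.19, interval -0.39 to 0.43) and SERPINE2 (-0.15, SE 0.12, interval -0.40 to 0.10) had intervals on both sides of 0.

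The 2 KDs were also compared with each other, a contrast in which 0.533% of all genes were higher and 1.4% lower with ETS1 KD. PLAUR was higher with ETS1 KD by 0.44 (SE 0.11, interval 0.20 to 0.67), with the 3 libraries of one KD above the 3 of the other, and missed the threshold with edgeR (adjusted p = 0.0656). With DESeq2 it passed (0.43, adjusted p = 0.0108), as it did in edgeR after correction for GC content and length (0.49, adjusted p = 0.022). The adjusted p was 0.182 when only these 2 groups were fitted and from 0.125 to 0.259 when 1 library was left out. PLAU (0.29, SE 0.19), PLAT (-0.29, SE 0.19) and SERPINE2 (0.11, SE 0.12) had edgeR adjusted p-values between 0.506 and 0.713.

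Against untreated control cells, PLAUR was higher in ETS1 KD cells with TWEAK by 0.85 (SE 0.11, edgeR adjusted p = 0.000462) and PLAT lower by -0.65 (SE 0.19, adjusted p = 0.0351), beside 6.22% of all genes higher and 7.61% lower. PLAT again needed every library, with an adjusted p from 0.0695 to 0.128 when any 1 was left out. In NFKB2 KD cells with TWEAK against the same untreated libraries, PLAUR differed by 0.41 (SE 0.11, edgeR adjusted p = 0.156, DESeq2 adjusted p = 0.0235) and PLAT by -0.36 (SE 0.18, edgeR adjusted p = 0.654). Here 0.409% of all genes were higher and 0.196% lower. Without NFKB2 KD replicate 2, PLAT differed by -0.64 and passed (edgeR adjusted p = 0.0456). These comparisons share the untreated or the TWEAK control libraries with that of TWEAK, so their values are not independent of it, and without an untreated KD group the change with TWEAK could not be compared between control and KD cells.

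**Figure D3:**
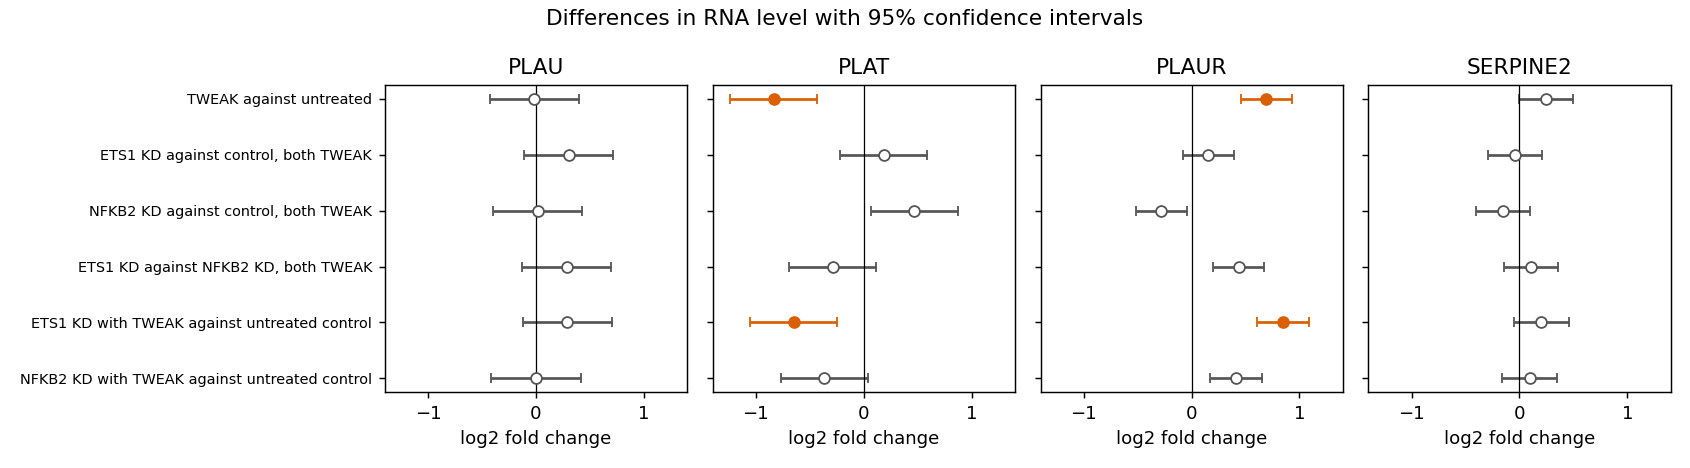
Log2 fold changes (horizontal axis) of the 4 genes in each of the 6 comparisons, with bars for the 95% confidence interval from edgeR and filled orange points where the adjusted p was under 0.05. PLAUR (0.69 and 0.85) and PLAT (-0.83 and -0.65) are filled in the comparisons of TWEAK control and of ETS1 KD cells with untreated cells.

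RNA Pol II ranked differently at the 4 start sites. Within 500 bp of the MANE start, a peak was listed in all 8 RNA Pol II libraries for PLAU, PLAUR and SERPINE2, and in 7 for PLAT. In each library the peaks were ranked by q-value. At PLAUR the peak was among the strongest 4.51% of every list, and within the strongest 2.50% in 7 of the 8. At SERPINE2 it lay at 36.0% and 7.71% of the list in untreated cells, at 1.41% and 4.70% in TWEAK control cells, at 5.29% and 4.96% with ETS1 KD and at 3.72% and 13.5% with NFKB2 KD. These ranks come from lists of 11175 to 44672 peaks. The fold enrichment of the same peak was 5.74 and 15.2 in untreated, 48.7 and 19.7 in TWEAK control, 15.4 and 14.5 in ETS1 KD and 19.4 and 9.93 in NFKB2 KD cells, and the libraries of either KD overlapped with the untreated ones. PLAU lay between 5.86% and 74.4% and PLAT between 5.84% and 32.7%. PLAT had no peak in NFKB2 KD replicate 2, whose list was the shortest with 11175 peaks against 24710 to 44672 in the others.

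The fold enrichment at the PLAUR start was 20.02 and 33.9 in untreated, 55.6 and 27.4 in TWEAK control, 33.9 and 31.8 in ETS1 KD and 24.1 and 13.7 in NFKB2 KD cells. The TWEAK control and the ETS1 KD libraries overlapped with the untreated ones, as did the NFKB2 KD libraries. RNA Pol II peaks also covered the body of PLAUR, unlike that of the other members. Untreated cells had 11.4% and 71.2% of the gene's length under peaks, TWEAK control cells 52.2% and 61.6%, ETS1 KD cells 77.5% and 79.1%, and NFKB2 KD cells 62.9% and 6.04%. The low values belong to the 2 libraries whose lists covered the least sequence in all, 13817422 bp in untreated replicate 1 and 5660049 bp in NFKB2 KD replicate 2. With lists of 15177858 bp and 27446497 bp, ETS1 KD replicate 1 had 77.5% and TWEAK control replicate 1 had 52.2% of PLAUR covered. The part of list size in these values was not tested. Peaks covered at most 17.1% of PLAU, 9.34% of PLAT and 0.991% of SERPINE2. Upstream of PLAU a second RNA Pol II peak was called in all 8 libraries, with its strongest summit 4003 to 4148 bp before the MANE start and a fold enrichment between 3.91 and 11.3. It was above that at the start site itself in both untreated libraries (9.27 and 11.3 against 6.91 and 10.2) and in replicate 1 of the other 3 conditions, and below it in their replicate 2.

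Counted by the same rule as for p52, RNA Pol II sites were found at 4 of 4 members in untreated, TWEAK control and ETS1 KD cells and at 3 with NFKB2 KD, beside 59.1%, 69.2%, 61.3% and 53.8% of all genes.

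**Figure D4:**
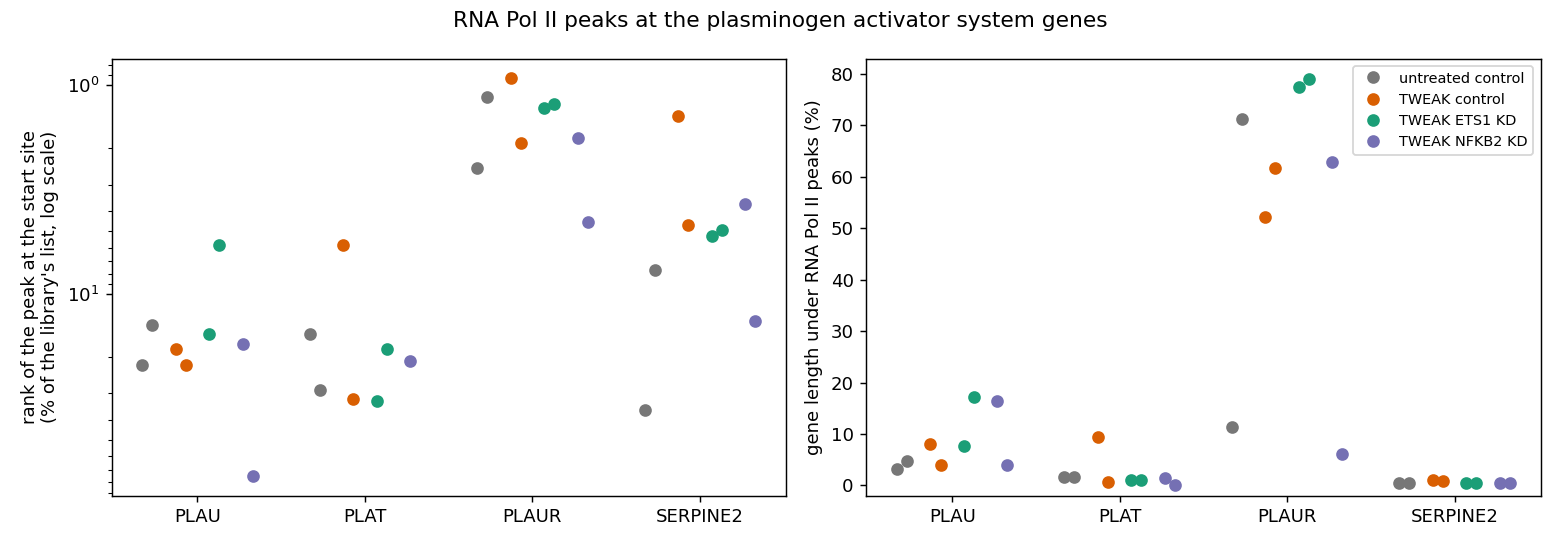
For each gene and RNA Pol II library (1 point each, coloured by condition), the left panel gives the rank of the peak at the MANE start as a percentage of the library's list on a reversed log axis, so that strong peaks are on top, and the right panel the percentage of the gene's length under peaks. PLAUR has the highest ranks and the widest coverage, between 6.04% and 79.1% of its length, and PLAT has no point in 1 NFKB2 KD library on the left.

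The other genes of plasminogen activation were followed as a list of 29, of which 21 were tested. RNA of plasminogen itself (PLG), of plasma kallikrein (KLKB1) and of hepsin (HPN) had 0 counts in all 12 libraries. The antiplasmin SERPINF2 reached at most 14 counts, and SERPINA5, A2M, CPB2 and SORL1 were too low to test as well. With TWEAK, 1 of 21 genes (4.76%) rose and 0 fell, beside 1.55% of all genes called higher and 1.53% lower. The median log2 fold change of the list was 0.09, beside 0.02 over all genes tested. SERPINB2, which encodes an inhibitor of urokinase and tissue plasminogen activator, was at 4.48, 4.64 and 4.72 CPM in untreated and at 16.9, 12.5 and 17.9 CPM in TWEAK control cells. All treated libraries lay above the untreated ones, with a log2 fold change of 1.77 (SE 0.40, edgeR adjusted p = 0.0309). The call of SERPINB2 was lost without any 1 of the 6 libraries (adjusted p from 0.0583 to 0.118). With DESeq2, CTSB and ITGAV passed as well, making 3 of 21, while the shares of all genes called above are those of edgeR. At an unadjusted p under 0.05 with DESeq2, 5 of 21 passed, beside 14.9% of all genes. By edgeR, CTSB was lower with TWEAK (-0.47, adjusted p = 0.0787) and ITGAV higher (0.72, adjusted p = 0.0849).

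In the KDs against TWEAK control cells, 0 of the 21 genes passed with edgeR and 0 with DESeq2, and 2 with ETS1 KD and 1 with NFKB2 KD had an unadjusted p under 0.05 in either tool. That is 9.52% and 4.76% of the list, beside 11.98% and 3.91% of all genes with edgeR. Their median log2 fold change was 0.13 with ETS1 KD, beside 0.01 over all genes, and -0.02 with NFKB2 KD, the same as over all genes. Between the KDs, 1 of 21 genes (4.76%) passed with edgeR, beside 1.94% of all genes. ANXA2, a surface protein that binds plasminogen and tissue plasminogen activator, was higher with ETS1 KD (2853, 3556 and 3065 CPM) than with NFKB2 KD (2226, 2172 and 1654 CPM), with a log2 fold change of 0.65 (SE 0.13, edgeR adjusted p = 0.0287). This call was lost without any 1 of the ETS1 KD libraries and without NFKB2 KD replicate 3 (adjusted p up to 0.149). Against untreated cells, ETS1 KD cells with TWEAK had SERPINB2 (1.62) and ANXA2 (0.81) higher and SERPINI1, which encodes neuroserpin, an inhibitor of tissue plasminogen activator, lower (-0.57), with edgeR adjusted p-values of 0.0169, 0.00188 and 0.0345. These 3 genes are 14.3% of the 21 tested, beside 13.8% of all genes called in either direction. The call of ANXA2 held without any 1 library, while SERPINB2 passed in 2 and SERPINI1 in 1 of 6 such fits, and SERPINI1 was not called without a filter on low counts. NFKB2 KD cells had 0 such calls with edgeR, 2 at an unadjusted p under 0.05 (9.52%, beside 8.56% of all genes), and 1 with DESeq2, SERPINB2.

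**Figure D5:**
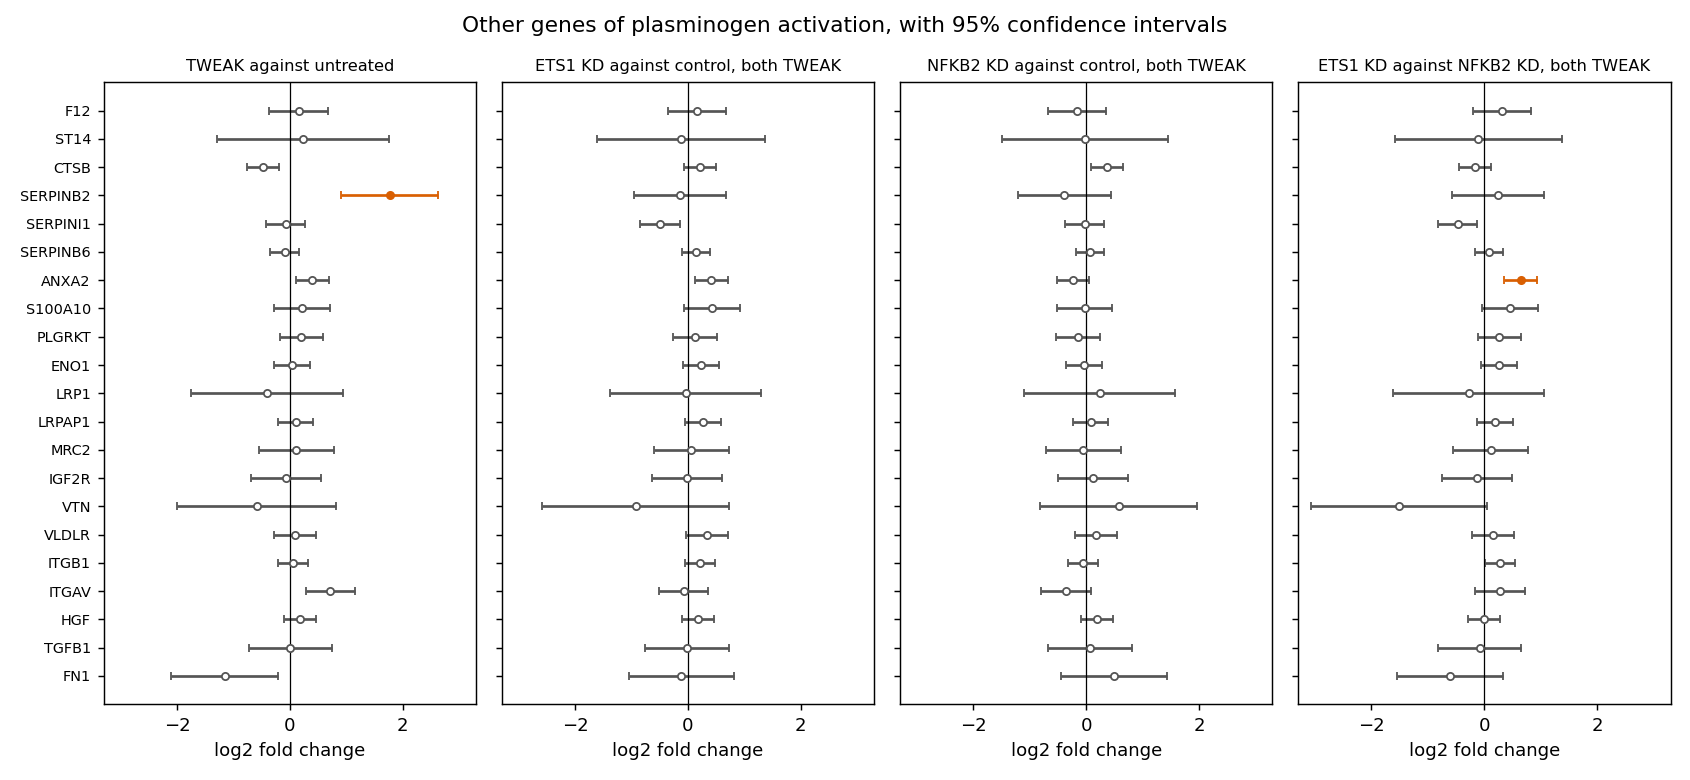
Log2 fold changes (horizontal axis) of the 21 tested genes of the plasminogen activation list in 4 comparisons, with bars for the 95% confidence interval from edgeR and filled orange points where the adjusted p was under 0.05. SERPINB2 (1.77) is filled for TWEAK and ANXA2 (0.65) for the contrast of the KDs.

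The pattern of each member over the 12 libraries was compared with that of all tested genes by Pearson's r of log2 CPM, as a description. Libraries share their groups and their GC trend, which enters these values. The 3 genes most like PLAUR were TMEM132A (0.980), EHD1 (0.979) and ESPL1 (0.976). PLAU was closest to ADGRG1 (0.974), VAPB (0.965) and EMC1 (0.962), and PLAT to BDKRB2 (0.963), GPRC5B (0.955) and RNF144A (0.953). SERPINE2 had an r of 0.926 with TNFRSF1B and of 0.922 with KRT79. Among the members themselves, r was 0.71 for PLAUR with SERPINE2, 0.54 for PLAU with PLAUR, 0.44 for PLAU with SERPINE2, -0.11 for PLAU with PLAT, -0.32 for PLAT with SERPINE2 and -0.73 for PLAUR with PLAT.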

How the data were processed

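RNA-seq was measured in 12 and ChIP-seq in 20 libraries, grouped by the labels, and 3 input samples were not analysed here. The inputs were of TWEAK control cells and of ETS1 KD cells with guide 1 and guide 2. None was listed for untreated or NFKB2 KD cells, so the background behind a fold enrichment may not match its condition. Reads were trimmed, mapped to hg38 and counted by the authors with Trimmomatic, STAR and featureCounts, and the deposited values are raw counts. ChIP reads were mapped with Bowtie2, and the authors called peaks with MACS2 for each library. The deposited fold enrichment (ratio) and −log10 q-values were used to describe peaks, and their depth is unknown. The −log10 p-values were not used. All 273996 peaks lay within chromosome ends of hg38. Counts were tested with edgeR 4.0.16 (R 4.3.3) with filterByExpr, TMM and the quasi-likelihood test over 4 groups, and Benjamini-Hochberg adjustment (threshold 0.05). DESeq2 1.42.0 was an alternative. Log2 CPM used a prior count of 2, FPKM the exon length in GENCODE 44, and Python 3.11.15 compared peaks that shared at least 1 bp. The code was tested on simulated data. The members and lists were chosen with earlier results of these data known. Named were the 4 members, the targeted genes, list genes past the threshold (at most 10 per comparison) and the 3 genes most like each member, of which 1 gene of the list and 1 of the most like genes are not reported here. Replicate numbers were not treated as pairs. RNA replicates are biological by the study's methods, while the sources used here do not say so for ChIP.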

Additional observations from a re-analysis of the deposited data

How the results depend on the processing

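The 2 calls of PLAUR against untreated cells held under every setting and without any 1 library, and those of PLAT under every setting with all libraries. Without 1 library, PLAT ranged from -0.90 to -0.74 (TWEAK) and -0.71 to -0.56 (ETS1 KD with TWEAK against untreated), each past the threshold in none of 6. In the latter contrast for NFKB2 KD it ranged from -0.64 to -0.20.

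The correlation of deviations from the group means was above 0.1 in 9 of the 18 pairs of libraries with the same number (r from -0.30 to 0.49), not in every pair, so the replicate block, which rests on a shared number only, was kept as an alternative. PLAUR between the KDs passed with the replicate block (0.43, adjusted p = 0.0295), with it and the GC and length correction (0.49, 0.00983), with the latter alone (0.49) and with DESeq2 (0.43). PLAUR in NFKB2 KD cells against untreated passed with DESeq2 (0.42), and PLAU in ETS1 KD cells against untreated with the replicate block and the GC and length correction (0.34, adjusted p = 0.0322). Values near 0 changed sign. With the GC and length correction, without and with the block, SERPINE2 with ETS1 KD was 0.014 and 0.016, and PLAU in NFKB2 KD cells against untreated -0.014 and -0.0065. Without 1 library, PLAU ranged from -0.16 to 0.22 (TWEAK), from -0.15 to 0.18 (NFKB2 KD) and from -0.093 to 0.25 (NFKB2 KD against untreated), and SERPINE2 from -0.00059 to 0.22 (between the KDs) and from -0.021 to 0.19 (NFKB2 KD against untreated).

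List genes called with TWEAK numbered 1, and 4 with no filter, 3 with DESeq2, 2 in a fit of 2 groups, 3 with the GC and length correction, 5 with it and the block, and 0 without any 1 library. With ETS1 KD they numbered 0, and 1 with block and correction. Between the KDs they numbered 1, and 2 with no filter, 0 in a fit of 2 groups, and 0 to 1 without 1 library. The members with a p52 site in TWEAK control cells numbered 2, and 1 in a window of 5000 bp, 4 with a peak in either replicate, 0 with the strongest peaks in equal numbers, and 2 to 4 without 1 replicate. For ETS1 in untreated cells the count of 1 became 2 in a window of 50000 bp and with either replicate, 0 in equal numbers, and 1 to 2 without 1 replicate. In TWEAK control cells the count of 2 became 0 at a −log10 q of at least 5 and 0 in equal numbers. For p52 with ETS1 KD guide 1 the count of 1 became 2 with either replicate and 1 to 2 without 1 replicate, and with guide 2 the count of 3 became 1 in equal numbers.

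Over all genes, 520 were called with TWEAK (476 to 1502 over the settings), 234 with ETS1 KD (237 to 782), 5 with NFKB2 KD (2 to 87), 327 between the KDs (104 to 1458), and, against untreated cells, 2334 with ETS1 KD (2211 to 4411) and 102 with NFKB2 KD (18 to 358). Without 1 library the counts, in the same order, ran from 171 (TWEAK replicate 3) to 405, from 102 (ETS1 KD replicate 3) to 148, from 2 (NFKB2 KD replicate 1) to 4, from 76 (ETS1 KD replicate 3) to 561 (NFKB2 KD replicate 1), from 1179 (ETS1 KD replicate 3) to 2109, and from 38 (untreated replicate 1) to 246 (NFKB2 KD replicate 2). The cause of these differences was not tested. The peak lists hold no counts, so a missing peak is not an absence of binding. PLAT, with 228 to 547 counts per library, had the widest counting error of the members.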
